A study of Mus musculus with 74 samples.

Results

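Gm7325, Serpinb1a, Adipoq, Pde4b, Pdgfc and Gm10664 are 6 of the 37620 genes listed in the RNA-seq tables, 27911 of which had a count in at least 1 library. They were chosen by their measured changes in normalised counts, because their transcripts came close to switching on or off when mouse embryonic stem (ES) cells lost the cytokine LIF or gained or lost the transcription factor Nanog. The choice was made over tables of all 35 libraries. The changes of Nanog SunTag cells and of 44iN cells on Dox withdrawal, from which the genes were first named, are given as values with no test. The p-values given for Nanog/Otx2 SunTag cells and for long-term 44iN cells set a difference against the spread between libraries. Since the choice had these libraries in view too, they are no independent evidence, and nothing is read from how many of the 6 passed.

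ES cells in serum are kept self-renewing by LIF, which acts through Stat3 on a network of transcription factors that includes Klf4, Tbx3, Esrrb and Nanog. When LIF is removed the cells leave this state and genes of the primed state, such as Fgf5 and Otx2, come up. High Nanog is known for keeping ES cells undifferentiated without LIF. The 6 genes are not core members of this network. Gm7325 (also named Mymx) encodes a micropeptide known for the fusion of myoblasts. Serpinb1a is an intracellular inhibitor of neutrophil serine proteases, Adipoq encodes the adipocyte hormone adiponectin, and Pde4b encodes a phosphodiesterase that hydrolyses cAMP. Pdgfc is a secreted ligand of the receptor Pdgfra, and Gm10664 is annotated as a processed transcript.

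All libraries were polyadenylated RNA of mouse ES cells in foetal calf serum. In SunTag cells, doxycycline (Dox) induces a catalytically dead Cas9 carrying 10 GCN4 epitopes together with an antibody fragment fused to GFP and the activator VP64, and a guide RNA brings them to the promoter of the endogenous Nanog gene. Nanog SunTag cells came as 2 clones, C1 and C2, grown for 3 days with 10 ng/mL LIF and no Dox (3 libraries), with LIF and 1 µg/mL Dox (2), with neither (3), or with Dox and no LIF (3). Nanog/Otx2 SunTag cells (C1ON3 and C2ON3, here C1 and C2) are derivatives of the same clones that carry a guide for Otx2 as well, so Dox raised both genes there. They had 3 libraries with LIF and no Dox and 4 in each of the other conditions. 44iN cells have no endogenous Nanog and a Dox-inducible Nanog transgene. All of them had LIF, and they were kept in Dox (2 libraries), 24 h after Dox removal (2), or long term without Dox (2). Tg2a, the wild type, gave 3 libraries from serum with LIF. The paper kept the long-term 44iN cells under G418, so they differ from Tg2a cells in line and selection as well as in Nanog. Each of these lines rests on 1 or 2 clones, every group with Dox also had Nanog switched on, and the labels do not say that replicates were separate cultures, so p-values measure the spread between these libraries.

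Nanog itself, the induced gene, followed the labels. Its mean was 24924 normalised counts in Nanog SunTag cells with LIF, 5916 without LIF, 84519 with LIF and Dox, and 51805 with Dox alone. In 44iN cells it was 15880 in Dox, 722 after 24 h and 252 in the long term. Pou5f1 was at 6786 or above in every library and the 8 ES markers summed to between 41912 and 245896. A normalised count is the estimated read count of a gene divided by the size factor of its library, and libraries held between 6107512 and 92244655 estimated counts, with a median of 29298745. The shallowest was the Nanog/Otx2 library C2-1 with LIF and no Dox, in which 1 read is worth more normalised counts than in any other. In bulk RNA, fewer expressing cells and less RNA per cell cannot be told apart.

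The guides that set up the experiment are shown with the bases of the PAM, the motif next to the target that Cas9 needs, in capitals. The Nanog guide matched the mouse genome (mm9) exactly once, on the plus strand at chr6:122657269-122657288, with its centre 229 bases before the annotated start of Nanog. The Otx2 guide matched once, on the minus strand at chr14:49282649-49282668, with its centre 111 bases before the nearest annotated transcript start and inside the extent of the Otx2 gene.
Nanog guide: cttcccactagagatcgccaGGG
Otx2 guide: aatgtagagcgtgcatttggAGG

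The 250 bases before the annotated starts of Serpinb1a and Adipoq are shown because the first fell without LIF and the second followed Dox. They are read 5′ to 3′ on the strand of the gene from mm9, at chr13:32943055-32943304 (minus strand, Serpinb1a) and chr16:23146359-23146608 (plus strand, Adipoq). Capitals mark TATAAA in Serpinb1a, and CCAAT or its reverse complement ATTGG in Adipoq.
Serpinb1a: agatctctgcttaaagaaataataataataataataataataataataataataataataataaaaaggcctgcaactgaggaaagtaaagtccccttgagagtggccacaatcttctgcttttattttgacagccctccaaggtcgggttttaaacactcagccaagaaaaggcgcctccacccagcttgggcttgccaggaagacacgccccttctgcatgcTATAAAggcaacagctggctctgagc
Adipoq: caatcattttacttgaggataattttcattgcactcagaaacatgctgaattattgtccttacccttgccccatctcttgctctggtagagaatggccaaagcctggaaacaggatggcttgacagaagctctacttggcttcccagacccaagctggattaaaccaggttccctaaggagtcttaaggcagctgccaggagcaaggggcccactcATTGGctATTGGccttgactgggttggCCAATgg

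The Serpinb1a window held TATAAA with its first base 26 bases before the start. TATAAA on the gene's strand stood within 50 bases of the start in 2.74% of the 37199 such windows of the annotation. The Adipoq window held 3 matches to CCAAT on either strand, 34, 27 and 7 bases before the start, and 33.7% of all windows held at least 1. Neither of these windows, nor those of Pde4b, Pdgfc and Gm10664, held TTCNNNGAA, the palindrome that STAT factors are known to bind, or TCAAGGTCA, the motif of Esrrb, on either strand. Pde4b has 13 distinct annotated transcript starts, and 1 of their windows held TTCNNNGAA. These letters occurred in 7.14% and 0.444% of all windows, and a window without them says only that they are not in those 250 bases. The Serpinb1a window was 41.2% G and C and the Adipoq window 48.8%, around a median of 49.6% over all windows.

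Gm7325 (ENSMUSG00000079471) lies at chr17:45737916-45739051 on the minus strand, Serpinb1a (ENSMUSG00000044734) at chr13:32933961-32943054 on the minus strand, and Adipoq (ENSMUSG00000022878) at chr16:23146609-23158101 on the plus strand. Pde4b (ENSMUSG00000028525) spans chr4:101760148-102279864 on the plus strand with 14 annotated transcripts and Pdgfc (ENSMUSG00000028019) chr3:80840338-81017962 on the plus strand. These 5 genes are protein-coding. Gm10664 (ENSMUSG00000074303), at chr8:67538755-67561235 on the minus strand, overlaps Trim60 and Trim61 on the same strand, which reached at most 12.2 and 20.4 normalised counts in any library. Reads of Serpinb1a may be shared with its close paralogs Serpinb1b and Serpinb1c.

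Of the 6 genes, 4 had both states: Gm7325, Serpinb1a, Adipoq and Pde4b each had a group mean under 10 normalised counts and another over 100. Among all genes with a group over 100, 796 of 12846 (6.20%) also had a group under 10, and since the genes were picked for such changes nothing is read from their share. Pdgfc and Gm10664 were not off anywhere. The lowest group mean of Pdgfc was 65.8 normalised counts, 38.0 times below its highest, and that of Gm10664 was 222, 11.6 times below its highest. The call of Adipoq rested on 1 group, Nanog SunTag cells with Dox and no LIF, and fell away when library C1-1b of that group was left out. Libraries C1-1 and C1-1b of that group carry the same sample title.

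**Figure D1:**
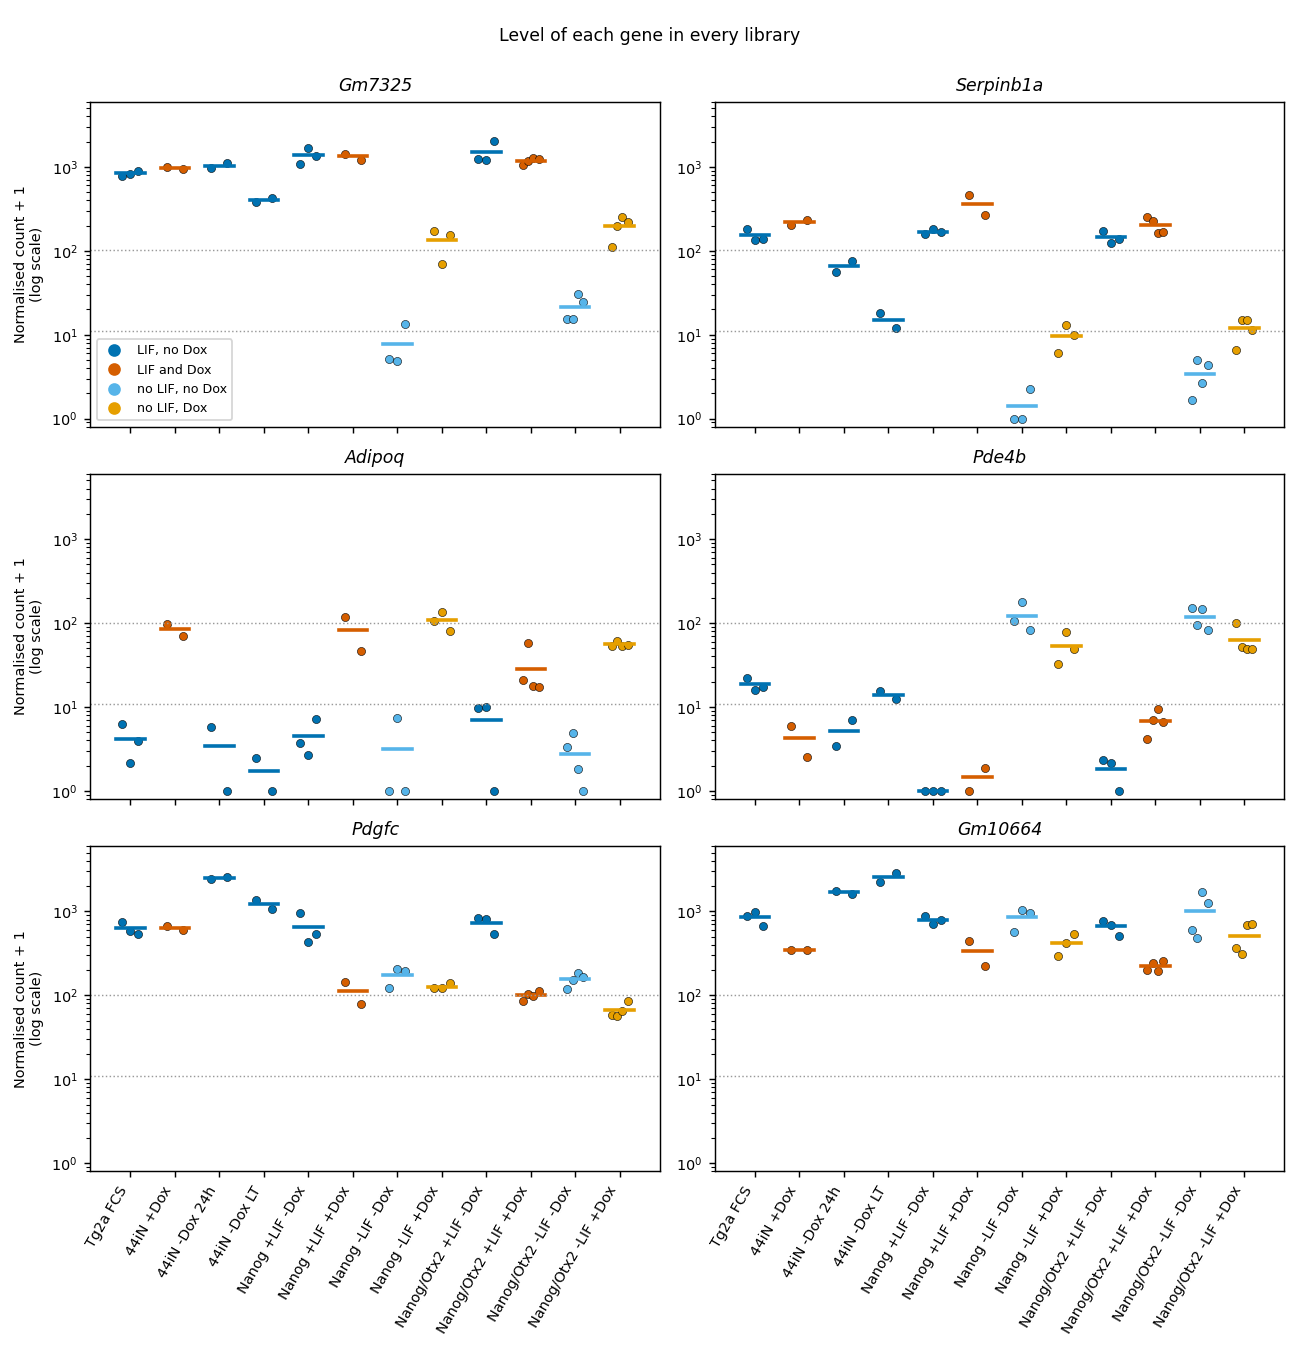
Normalised count plus 1 (log scale) of each gene in all 35 libraries, by group. Points are libraries coloured by LIF and Dox, bars are group means and dotted lines mark 10 and 100. Gm7325 and Serpinb1a were low in the groups without LIF, Adipoq was high in the groups with Dox, and Pde4b was high in the groups without LIF.

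The plot of levels shows 4 patterns. In SunTag cells, Gm7325 and Serpinb1a were high with LIF and nearly absent without it, and Dox brought back a small share, while Serpinb1a was also low in long-term 44iN cells, which had LIF. Pde4b did the opposite. Adipoq was low, at most 9.07 normalised counts, in every library without Dox and higher in every library with Dox, with or without LIF. Pdgfc and Gm10664 were lower with Dox in LIF and higher in 44iN cells that had lost Nanog.

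In Nanog/Otx2 SunTag cells, 5 of the 6 genes changed on LIF withdrawal without Dox (adjusted p under 0.05 in the quasi-likelihood test of edgeR, adjusted over 15609 genes by the Benjamini-Hochberg method), 4 lower and 1 higher. Of all genes tested 49.8% changed, 24.6% higher and 25.2% lower. Genes entered the test if they had 10 or more normalised counts throughout at least 1 group. Serpinb1a did so only in groups with LIF, Adipoq only in groups with Dox and Pde4b only in groups without LIF. Each was high there, so their calls between those groups and the others are not read as support. In what follows SE is the standard error of a log2 fold change. With Dox in the medium, 5 of 6 changed on LIF withdrawal, 2 higher and 3 lower, against 36.5% of all genes (18.7% higher and 17.9% lower). Dox without LIF changed 5 of 6, 3 higher and 2 lower, against 17.3% of all genes (11.2% higher and 6.15% lower). With the replicate block, which compares libraries of the same clone and number, Dox without LIF changed all 6, against 33.4% of all genes. Dox with LIF changed 4 of 6, 2 higher and 2 lower, against 22.9% (12.9% higher and 10% lower). The response to Dox differed between media with and without LIF for 5 of 6, against 9.7% of all genes (5.15% with a higher response without LIF and 4.55% with a lower one). Long-term 44iN cells without Dox differed from Tg2a cells in 4 of the 5 genes that passed the filter on low counts, 2 higher and 2 lower, where 8.61% of 14937 genes did (3.35% higher and 5.26% lower), and none of the 4 calls held when either long-term library was left out. With Dox in LIF, the calls of Pdgfc and Gm10664 held whichever of the 15 libraries was left out, and without library C1-1 or C1-2 in LIF without Dox they were the 2 that remained. LIF withdrawal without Dox and Dox without LIF share the libraries with neither, and LIF withdrawal with Dox shares its libraries with both Dox comparisons, so the comparisons are not independent of each other.

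**Figure D2:**
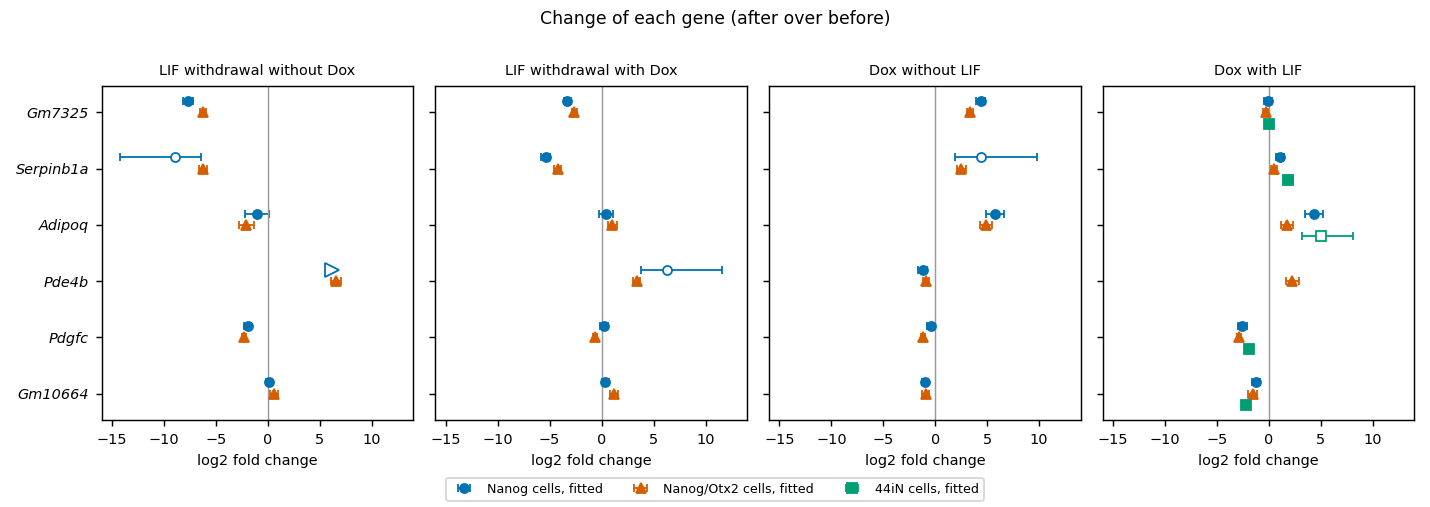
Log2 fold change of each gene in each comparison, after over before, in Nanog (circles), Nanog/Otx2 (triangles) and 44iN (squares) cells. Filled symbols are fitted changes with their standard errors, hollow symbols are ratios of pooled counts of 1 to 3 in the lower group with 95% intervals, and the hollow arrowhead is a lower bound of 69.6-fold. Gm7325 and Serpinb1a lie left of 0 on LIF withdrawal and Pde4b right of it, and Adipoq lies right of 0 with Dox.

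Gm7325, the fusion micropeptide gene, was high with LIF and close to off without it, and Dox brought part of it back. In Nanog SunTag cells it had 1076, 1690 and 1365 normalised counts with LIF and 4.07, 3.88 and 12.3 without, which rested on 5, 3 and 10 reads. With Dox and no LIF it had 173, 68.6 and 155, and with LIF and Dox 1440 and 1219. The conditions without Dox and the one with Dox alone did not overlap, and the libraries with Dox alone stood between the others. The fitted log2 change was −7.72 (SE 0.49) for LIF withdrawal and 4.36 (0.47) for Dox without LIF.

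The same order held for Gm7325 in Nanog/Otx2 SunTag cells. It had 1245, 1207 and 2032 normalised counts with LIF, and 14.4, 14.5, 30.0 and 23.4 without, so every library without LIF lay far under every library with it. The fall had a log2 fold change of −6.23 (SE 0.31, edgeR adjusted p = 1.53e-09), or 75.2-fold. Dox in the absence of LIF raised it to 111, 195, 255 and 219, a log2 fold change of 3.31 (SE 0.30, edgeR adjusted p = 5.83e-06), with no overlap. In the presence of LIF, Dox left it between 1065 and 1271, which overlapped the libraries without Dox (log2 fold change −0.30, 95% interval −0.78 to 0.18, edgeR adjusted p = 0.407). The difference between the responses to Dox was 3.61 on the log2 scale (SE 0.38, edgeR adjusted p = 7.6e-05). The level that Dox reached without LIF was 13.0% of the level in LIF, with single libraries between 7.42% and 17.1%, against 9.60% in Nanog SunTag cells (4.98% to 12.6%). Without Dox it was 1.38% and 0.490%.

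Gm7325 stayed high in 44iN cells a day after Nanog was withdrawn in LIF. These cells had 1002 and 944 normalised counts of Gm7325 in Dox and 965 and 1103 after 24 h without, which overlapped (log2 change 0.01, SE 0.23). In the long-term cells it stood at 377 and 426.3, under the 787, 813 and 902 of Tg2a cells, a log2 fold change of −1.13 (SE 0.18, edgeR adjusted p = 0.0115). Without a long-term library the adjusted p was 0.187 or 0.0994, and without Tg2a replicate 2 it was 0.0542.

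Neighbours of Gm7325 on both sides fell without LIF in Nanog/Otx2 SunTag cells. Slc29a1, a nucleoside transporter gene whose annotated start lies 1360 bases away, had a log2 fold change of −2.07 (edgeR adjusted p = 1.25e-09) and rose by 0.85 with Dox. Capn11, a calpain gene 28101 bases away, had −3.85 (edgeR adjusted p = 1.16e-07) and rose by 2.60 with Dox without LIF. Over the 24 genes that are the nearest 2 on each side of the 6, 8 passed the filter, of which 2 rose and 4 fell on LIF withdrawal without Dox, where 24.6% of all genes rose and 25.2% fell. Sgip1, next to Pde4b but 134037 bases away, was 1 of the genes that rose (log2 fold change 2.49, edgeR adjusted p = 8.48e-05).

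Serpinb1a, the protease inhibitor gene, went from a moderate level to nearly nothing without LIF. Nanog SunTag cells had 158, 181 and 167 normalised counts with LIF, and 0, 0 and 1.23 without, where the last value was 1 read. With LIF and Dox it had 457 and 266, above those with LIF alone. The pooled counts gave a ratio of 478 (95% interval 85.2 to 18961, counting error only). With Dox and no LIF it had 5.01, 12 and 9.04 normalised counts, above all 3 libraries without Dox, and the ratio to them was 21.7 (3.66 to 881). The return was to 5.15% of the level in LIF.

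In Nanog/Otx2 SunTag cells Serpinb1a had 170, 122 and 139 normalised counts with LIF and 0.669, 3.96, 1.67 and 3.34 without, from 2 or 3 reads per library. These groups were far apart, with a log2 fold change of −6.24 (SE 0.41, edgeR adjusted p = 2.24e-08). Serpinb1a passed the filter on low counts only through the groups with LIF. Dox without LIF gave 5.59, 14, 14 and 10.5, which was higher than every library without Dox by a log2 fold change of 2.51 (SE 0.47, edgeR adjusted p = 0.00203) and reached 7.67% of the level in LIF. With LIF, Dox gave 253, 226, 164 and 167, which overlapped the libraries without Dox (log2 fold change 0.50, 95% interval −0.07 to 1.07, edgeR adjusted p = 0.231). The response to Dox differed by 2.01 on the log2 scale between the media (edgeR adjusted p = 0.0322), a call that was lost under 9 of the 15 ways of leaving out 1 library.

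Serpinb1a also fell when Nanog was lost in the presence of LIF. 44iN cells had 200 and 233 normalised counts in Dox and 55.2 and 73.9 after 24 h without it, with no overlap between them and a log2 change of 1.84 with Dox (SE 0.43). The long-term cells were lower again, at 17.3 and 10.9, against 182, 134 and 138 in Tg2a cells. That log2 fold change was −3.48 (SE 0.37, edgeR adjusted p = 0.00344), and 0.0798 or 0.0599 were the adjusted p without 1 or the other long-term library.

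Prtn3, a neutrophil marker, had lower group means without LIF and higher ones with Dox in SunTag cells, as Serpinb1a did. Its levels with LIF were much lower. The summed level of the 4 neutrophil markers Elane, Ctsg, Prtn3 and Mpo in SunTag cells was between 6.80 and 31.3 normalised counts with LIF, between 0.814 and 4.01 with neither, and between 2.57 and 20.5 with Dox and no LIF. In Nanog/Otx2 SunTag cells the sum with Dox and no LIF, 8.88 to 20.5, overlapped the 6.80 to 13.9 with LIF alone. Serpinb1a in these cells did not overlap between those groups. Prtn3 made up most of the summed level in the SunTag groups with LIF or Dox. The sum was at most 0.991 in 44iN cells in Dox and 3.28 in Tg2a cells, where Serpinb1a was high. The defining marker Elane was at 0 in 29 of the 35 libraries and Ctsg in 26. The part of these transcripts in the Serpinb1a result was not tested.

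Pde4b, the cAMP phosphodiesterase gene, was off with LIF and on without it in SunTag cells. Nanog SunTag cells with LIF and no Dox had 0 counts in all 3 libraries, and those without LIF had 105, 177 and 81.1 normalised counts, at least 69.6-fold higher against a floor of 3 counts over the group. With Dox and no LIF it had 31.3, 77.2 and 47.9, all under the libraries without Dox, with a log2 change of −1.19 (SE 0.44). Dox in LIF gave 1 read in 2 libraries, so no fold is given there.

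In Nanog/Otx2 SunTag cells Pde4b had 1.34, 1.13 and 0 normalised counts with LIF, which were 4 reads in all, and 149, 95.1, 147 and 82.4 without. The groups were far apart, with a log2 fold change of 6.55 (SE 0.53, edgeR adjusted p = 1.49e-07). Pde4b passed the filter on low counts only through the groups without LIF. Dox without LIF gave 98.8, 50.2, 48.2 and 48.0, and the highest of these lay among the libraries without Dox. This log2 fold change was −0.92 (SE 0.29, edgeR adjusted p = 0.0383). It was lost without a filter on low counts (adjusted p = 0.0633) and in 5 of the 15 fits that left out a library. The remaining level was 51.7% of that without Dox, and 43.0% in Nanog SunTag cells.

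In LIF, Dox moved Pde4b the other way in these cells. It had 3.13, 6.03, 8.42 and 5.60 normalised counts with LIF and Dox, all above the 3 libraries without Dox (log2 fold change 2.26, standard error 0.63, edgeR adjusted p = 0.0193), from 27 reads against 4. The responses to Dox with and without LIF differed by −3.18 on the log2 scale (edgeR adjusted p = 0.0093), or with an adjusted p of 0.0509 without library C1-2 in LIF and no Dox. Without library C1-1 or C1-2 of the cells in LIF without Dox, the rise in LIF had an adjusted p of 0.0665 or 0.0960, and without C2-1 of those in LIF and Dox 0.0520.

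Outside SunTag cells Pde4b was low but present. Tg2a cells had 21.2, 15.1 and 16.4 normalised counts and long-term 44iN cells 14.4 and 11.6, which did not overlap but did not pass the test (log2 fold change −0.50, 95% interval −1.19 to 0.19, edgeR adjusted p = 0.405). 44iN cells had 4.95 and 1.56 in Dox and 2.40 and 5.92 after 24 h, from at most 6 reads in a group, and did not pass the filter. Summed levels of 5 primitive endoderm markers were between 2195 and 6282 in the Tg2a and long-term libraries, against 97.8 to 751 in all other libraries, and their part in the level of Pde4b was not tested. The summed level of the primed markers Fgf5, Otx2, Pou3f1 and Dnmt3b, most of it Dnmt3b, moved with Pde4b in SunTag cells on LIF withdrawal and with Dox without LIF. In Nanog SunTag cells it was 3647 to 7176 with LIF, 71205 to 84585 without, and 32965 to 36848 with Dox and no LIF. In Nanog/Otx2 SunTag cells without LIF it was 88542 to 100878 without Dox and 52265 to 61925 with Dox, although Otx2, which Dox induced there, rose from a mean of 4074 to 7173. With LIF the sum in these cells was 4555 to 12092 without Dox and 6832 to 10606 with Dox. Those ranges overlapped, while Pde4b rose with Dox there. The part of these markers in the Pde4b result was not tested.

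Adipoq, the adiponectin gene, followed Dox rather than LIF. All 15 libraries with Dox had between 16.3 and 135 normalised counts of it, and all 20 without had between 0 and 9.07, so the sets did not overlap. LIF withdrawal without Dox left it under 10 normalised counts in both SunTag lines. Of 16800 genes that reached 10 normalised counts throughout at least 1 group, 6 (0.0357%) had every Dox library above every other library, Adipoq included. This pattern was looked for after the Adipoq values were seen, so nothing is read from that share. In Nanog SunTag cells it had 2.68, 1.68 and 6.24 with LIF and no Dox, and 117 and 44.9 with LIF and Dox. Without LIF it had 0, 6.46 and 0, against 105, 135 and 79.5 with Dox. The log2 changes were 4.32 (SE 0.87) in LIF and 5.78 (0.85) without.

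In Nanog/Otx2 SunTag cells Adipoq rose with Dox in both media. It passed the filter on low counts only through the groups with Dox. Without LIF it went from 2.34, 3.96, 0.833 and 0 normalised counts to 52.2, 60.7, 52.0 and 53.9, a log2 fold change of 4.86 (SE 0.58, edgeR adjusted p = 5.05e-05) with no overlap. With LIF it went from 8.72, 9.07 and 0 to 19.8, 57.3, 16.8 and 16.3, also with no overlap (log2 fold change 1.74, standard error 0.56, edgeR adjusted p = 0.0366). That call in LIF rested on few reads. It was lost without the filter on low counts (adjusted p = 0.0522) and without any library of the cells in LIF and no Dox (0.0524 to 0.0998), and without the high library C1-2 the log2 fold change was 1.17 (adjusted p = 0.0915). The response to Dox was larger without LIF by 3.12 on the log2 scale (SE 0.82, edgeR adjusted p = 0.0254), a difference that was lost in 4 of the 15 fits that left out a library. The levels with Dox, with LIF against without, overlapped (log2 fold change 1.05 without LIF, edgeR adjusted p = 0.0699, and 0.00985 with the replicate block).

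Without Dox, Adipoq was low with and without LIF. The Nanog/Otx2 values of 8.72, 9.07 and 0 against 2.34, 3.96, 0.833 and 0 overlapped, and the log2 fold change of −2.08 (edgeR adjusted p = 0.0219) came from 29 reads against 11. It was lost when library C1-1 or C1-2 with LIF, or C2-1 without it, was left out (adjusted p 0.0530 to 0.0929). 44iN cells had 97.1 and 70.0 normalised counts in Dox, and 4.80 and 0 after 24 h without it. That is 143 reads against 2, a ratio of 32.7 (95% interval 8.88 to 272). Tg2a cells had 5.31, 1.16 and 2.98 and long-term 44iN cells 1.44 and 0, which overlapped and did not pass the filter, with a ratio of 3.74 (1.12 to 19.5) in pooled counts.

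By normalised counts, Nanog and Adipoq did not order all libraries alike. 44iN cells in Dox had 13366 and 18394 normalised counts of Nanog, expressed from a transgene, against 19420 to 20261 in Tg2a cells. These 44iN cells had more Adipoq than any library without Dox. Whether counts of the transgene and of the endogenous gene can be compared was not tested. No library had Dox without an induced Nanog, so an effect of Dox and an effect of the Nanog that it induced cannot be told apart. Other adipocyte genes differed in level. Lpl had between 123 and 806 normalised counts and Lipe between 24.8 and 250, while several of the 8 adipocyte markers were close to absent. Lep was at 0 in 32 of 35 libraries, Cfd in 32 and Plin1 in 25, and the sum of the 8 adipocyte markers was between 14.8 and 88.3 normalised counts, mostly Retn and Slc2a4.

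**Figure D3:**
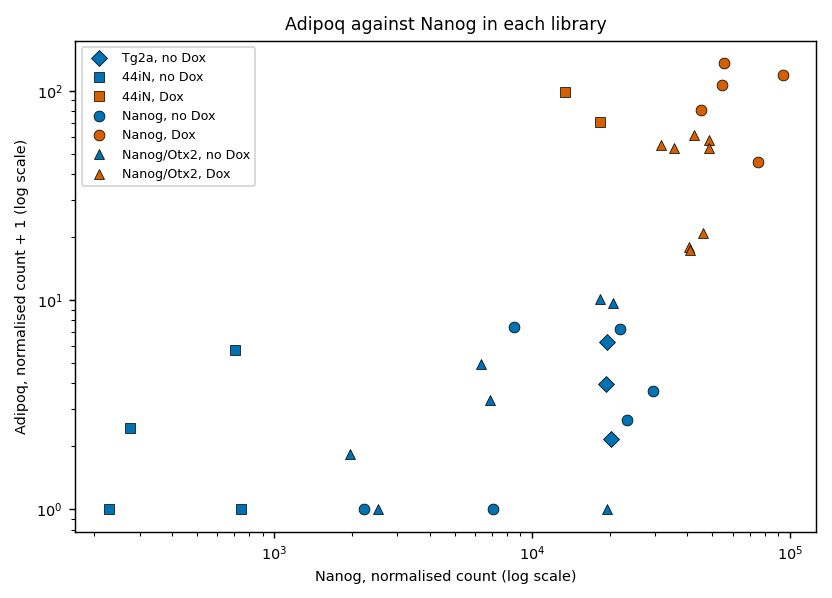
Adipoq (normalised count plus 1, log scale) against Nanog (normalised count, log scale), with 1 point for each of the 35 libraries, shaped by cell line and coloured by Dox. All 15 Dox libraries lie above all 20 others for Adipoq, and the 44iN Dox libraries do so at 13366 and 18394 counts of Nanog, to the left of wild-type Tg2a cells. Nanog of the 44iN Dox libraries comes from a transgene.

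Pdgfc, the PDGF ligand gene, was lower with Dox in LIF and lower without LIF, and higher after Nanog was lost. In Nanog SunTag cells with LIF it had 967, 431 and 532 normalised counts without Dox and 144 and 78.0 with Dox, which did not overlap (log2 change −2.58, SE 0.42). Without LIF it had 120, 203 and 192, and 120, 120 and 138 with Dox as well, so Dox changed little there (log2 change −0.41, SE 0.34). LIF withdrawal without Dox gave a log2 change of −1.93 (0.35).

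Nanog/Otx2 SunTag cells in LIF had 829, 822 and 542 normalised counts of Pdgfc without Dox and 85.6, 103, 98.3 and 112 with Dox. The groups were far apart, with a log2 fold change of −2.87 (SE 0.20, edgeR adjusted p = 3.8e-06). Without LIF it had 117, 152, 185 and 166, lower than with LIF by 2.29 on the log2 scale (SE 0.20, edgeR adjusted p = 2.59e-07). Dox lowered these further to 57.8, 56, 64.7 and 84.8, under every library with neither (log2 fold change −1.18, standard error 0.19, edgeR adjusted p = 7.34e-04). Dox thus lowered it less without LIF than with it. The Dox response differed by 1.69 on the log2 scale between the media (edgeR adjusted p = 0.00156), and this held whichever library was left out. With Dox present, LIF withdrawal lowered it by a log2 fold change of −0.60 (edgeR adjusted p = 0.0239), which was lost in 3 of the 15 fits that left out a library.

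In 44iN cells Pdgfc rose from 677 and 597 normalised counts in Dox to 2462 and 2547 within 24 h of Dox removal, a log2 change of −1.88 for Dox (SE 0.21). This was its highest level in any group. Long-term cells had 1382 and 1067, above the 750, 587 and 541 of Tg2a cells (log2 fold change 0.89, standard error 0.20, edgeR adjusted p = 0.0358). The adjusted p was 0.337 or 0.141 without 1 or the other long-term library and 0.119 without Tg2a replicate 2. Of 10 other genes of PDGF ligands, receptors and activators tested, 1 was higher in the long-term cells and 1 lower, against 8.61% of all genes. Pdgfra, the receptor gene, was at 2904 against 1188 normalised counts in Tg2a cells (log2 fold change 1.21, edgeR adjusted p = 0.0145). Flt1, a VEGF receptor gene that the list also holds, was at 59.0 against 201 (log2 fold change −1.84, edgeR adjusted p = 0.0164). Pdgfra is also a marker of primitive endoderm, and the sum of the 5 markers of that lineage was 4032 to 6282 in the long-term cells and 2195 to 2826 in Tg2a cells. The part of such cells in the Pdgfc and Pdgfra values was not tested.

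Gm10664, the processed transcript, was lower with Dox in LIF and higher after loss of Nanog. In Nanog SunTag cells with LIF it had 878, 699 and 780 normalised counts without Dox and 446 and 221 with Dox. Without LIF it had 563, 1033 and 945, and 290, 421 and 539 with Dox. Dox libraries were under the others in each medium, with log2 changes of −1.27 (SE 0.36) in LIF and −0.99 (0.31) without. LIF withdrawal without Dox gave overlapping groups and a log2 change of 0.09 (0.31).

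In Nanog/Otx2 SunTag cells with LIF Gm10664 fell from 775, 697 and 514 normalised counts to 197, 240, 197 and 255 with Dox, with no overlap (log2 fold change −1.58, standard error 0.39, edgeR adjusted p = 0.0100). Without LIF the clones stood apart. Clone C1 had 603 and 481 without Dox and 365 and 308 with Dox, and clone C2 had 1725 and 1257 without and 685 and 701 with. The pooled fall without LIF had a log2 fold change of −0.94 (edgeR adjusted p = 0.0843), and 0.0263 with the replicate block and 0.0335 in DESeq2. Within clones, Dox lowered it 1.61-fold in C1 and 2.15-fold in C2. LIF withdrawal without Dox lowered it 1.36-fold in C1 and raised it 2.90-fold in C2. In C2 the level with LIF and no Dox came from 1 library, the shallowest of all. The pooled change did not pass the test (log2 fold change 0.56, 95% interval −0.19 to 1.32, edgeR adjusted p = 0.245). In Dox, Gm10664 was higher without LIF (log2 fold change 1.20, edgeR adjusted p = 0.0185), by 1.54-fold in C1 and 3.07-fold in C2. This call was lost without either C2 library that had Dox and no LIF (adjusted p = 0.0545 and 0.0592).

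44iN cells had 348 and 345 normalised counts of Gm10664 in Dox and 1759 and 1609 after 24 h without it (log2 change −2.18 for Dox, SE 0.23). Long-term cells had 2268 and 2905, the highest values of any library, against 891, 984 and 671 in Tg2a cells. That log2 fold change was 1.53 (SE 0.21, edgeR adjusted p = 0.00692), and the adjusted p was 0.0798 or 0.0945 without 1 or the other long-term library.

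Across the 35 libraries, which share these conditions, Gm7325 and Serpinb1a had a Pearson correlation of 0.942 on the log2(normalised count + 1) scale, and Pde4b correlated with them at −0.864 and −0.873. Pdgfc and Gm10664 correlated at 0.646, and Adipoq and Gm10664 at −0.674. Among 16800 genes, those most like Gm7325 were Tbx3 (0.977), 4930461G14Rik (0.969) and Klf4 (0.969), and those most like Serpinb1a were Klf4 (0.972), Mapt (0.963) and Tbx3 (0.949). Klf4 and Tbx3 are transcription factors of the ES cell network named above. Pde4b was most like Fermt1 (0.963), Setd7 (0.958) and Inadl (0.953), and Pdgfc most like Cnpy1 (0.937), Pik3c3 (0.932) and Orc1 (0.924). The values were lower for Adipoq, with Lrat (0.856), Gm12193 (0.847) and Gm15053 (0.845), and for Gm10664, with Mup6 (0.895), Cct2 (0.847) and Ms4a14 (0.844).

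Other genes of the pathways of the 6 moved in several directions in Nanog/Otx2 SunTag cells. Their counts stand against 49.8% of all genes changed on LIF withdrawal without Dox and 17.3% with Dox without LIF. Of 11 other genes for PDGF ligands, receptors and activators, 4 rose and 5 fell on LIF withdrawal without Dox, and 2 rose and 1 fell with Dox without LIF. Pdgfa, another ligand gene, fell from 730 ± 128 (SD, n = 3) to 95.2 ± 13.9 (n = 4) normalised counts without LIF, and it rose with Dox there, to 376 ± 116 (log2 fold change 2.03, edgeR adjusted p = 1.9e-05). Pdgfd rose without LIF by a log2 fold change of 2.91, as did Plat (2.24), which encodes the protease tPA that activates PDGF-C protein. The PDGF receptor gene Pdgfra fell (−1.14), and Pdgfrb did not pass the test (−0.16, edgeR adjusted p = 0.567). With Dox without LIF Pdgfrb rose (1.12, edgeR adjusted p = 9.06e-04). Kdr, a VEGF receptor gene that the list also holds, fell without LIF (−3.12).

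Of 32 other entries for cAMP cyclases, phosphodiesterases and effectors, 13 rose and 6 fell on LIF withdrawal without Dox. That is 59.4%, against 49.8% of all genes. With Dox without LIF 7 rose and 3 fell, against 17.3% of all genes, and with the replicate block 13 and 7, against 33.4%. Pde8b rose without LIF (log2 fold change 2.20), as did the cyclase genes Adcy7 (2.30) and Adcy6 (2.01), while Pde8a (−2.46) and the cAMP-binding exchange factor genes Rapgef3 (−3.43) and Rapgef4 (−3.05) fell. Pde3a had the directions of Pde4b, with a log2 fold change of 1.59 without LIF and −1.28 with Dox (edgeR adjusted p = 0.0302).

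Of the clade B serpins and their target proteases, 5 entries besides Serpinb1a passed the filter, of which 4 fell and 1 rose on LIF withdrawal without Dox (49.8% of all genes changed) and 4 rose with Dox without LIF (17.3%). Serpinb6c, another intracellular serpin gene, had log2 fold changes of −4.70 and 2.38, Serpinb9b of −2.53 and 1.28, and the protease gene Prtn3 of −1.62 and 1.86. Serpinb9 was the one that rose without LIF (1.22). These genes had the directions of Serpinb1a except for Serpinb9, whose change with Dox did not pass the test (−0.22, edgeR adjusted p = 0.562).

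Genes of the tissues in which Gm7325 and Adipoq are known moved in both directions. Of 7 other myoblast fusion and muscle genes, 3 rose and 1 fell without LIF, near the 49.8% of all genes, and 3 rose with Dox without LIF, against 17.3%, or 5 with the replicate block, against 33.4%. Jam2, an adhesion molecule gene, fell from 5467 ± 406 (SD, n = 3) to 112 ± 13.7 (n = 4) normalised counts and rose to 489 ± 186 with Dox, log2 fold changes of −5.65 and 2.17. The sarcomeric actin gene Actc1 had 2 reads with LIF and 291 without, a ratio of 86.4 (95% interval 23.7 to 717), and Acta1 rose by 2.18 on the log2 scale. Of 8 other adiponectin receptor and adipocyte genes, Lpl rose (1.63) and Lipe fell (−1.30) without LIF, and 1, Lipe (0.49), rose with Dox without LIF. The median log2 change of the 5 lists on LIF withdrawal without Dox was −0.16 for PDGF, 0.44 for cAMP, −1.62 for the serpins, 0.02 for the adipocyte and 0.03 for the muscle list, against −0.01 for all genes tested. With Dox without LIF these were 0.55, 0.27, 1.28, 0.06 and 0.84, against −0.01.

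**Figure D4:**
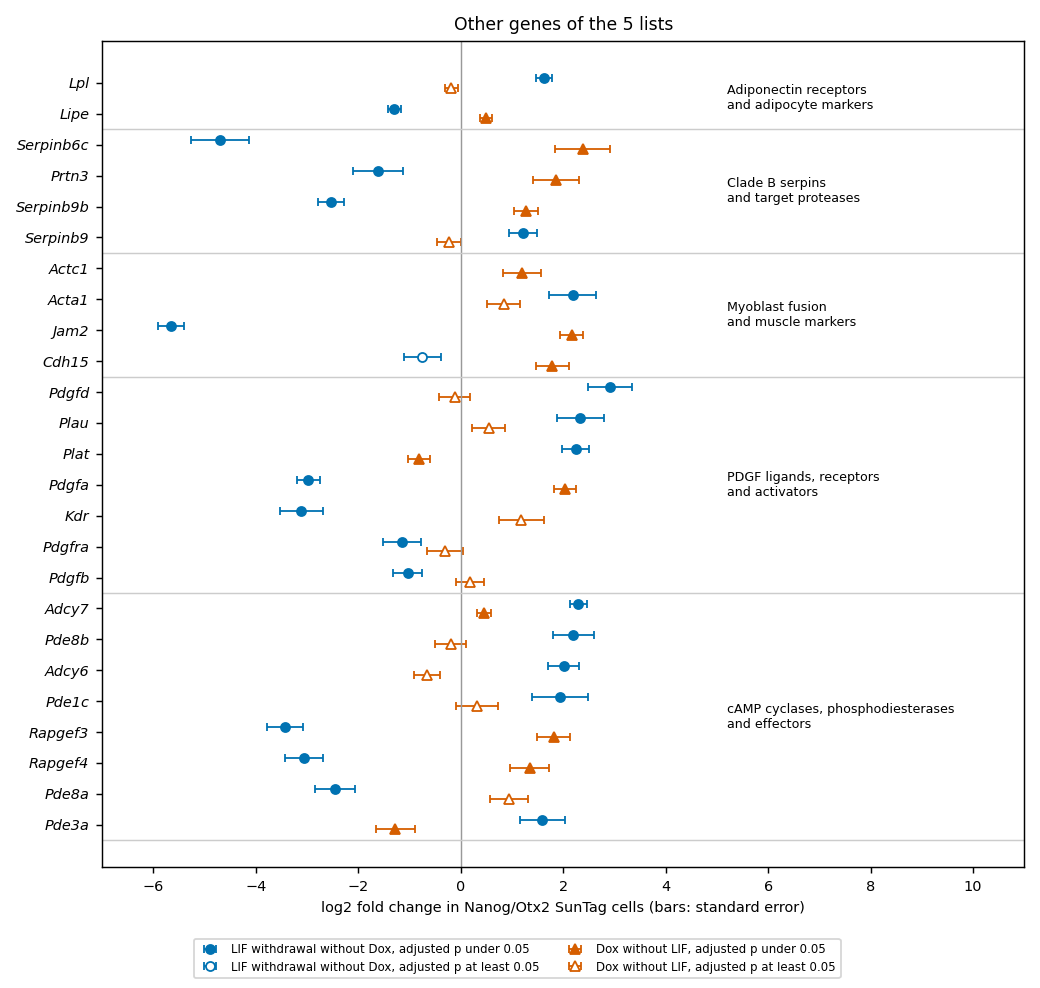
Fitted log2 fold change, with its standard error, of genes of the 5 lists other than the 6 in Nanog/Otx2 SunTag cells, for LIF withdrawal without Dox (circles) and Dox without LIF (triangles). Filled symbols had an adjusted p under 0.05 in edgeR, the genes are those with the largest changes past a log2 fold change of 1, and the LIF value of Actc1 is left out because it rests on 2 reads. Jam2 and Serpinb6c lie farthest left at −5.65 and −4.70, and their Dox values of 2.17 and 2.38 lie right of 0.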

How the data were processed

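RNA-seq libraries of mouse ES cells (35, of 74 samples in the series) were used, and the ChIP-seq, ATAC-seq and 2i samples were not analysed here. The authors aligned 65-base single-end TruSeq Stranded reads to mm9 with STAR and deposited RSEM estimated counts rounded to whole numbers. The deposited normalised counts are a signal: each estimated count over the DESeq2 size factor of its library, as computed by the authors. Groups came from the sample titles. The 6 genes and all lists were chosen with earlier results of these data known. Values printed are normalised counts. Estimated counts were tested in R 4.3.3 with edgeR 4.0.16 (TMM scaling, quasi-likelihood F test), in separate fits for each cell line, on genes whose normalised count was 10 or more throughout at least 1 group. The SE was the log2 fold change divided by the square root of F. The 95% intervals of log2 fold changes took the normal multiple of that SE, which is too narrow with so few libraries. Where the lower group held 3 counts or fewer in all, the ratio of pooled counts and its exact 95% interval, or a bound against 3 counts, was given. Scripts were tested on simulated data. List genes named were those called with a log2 fold change of at least 1 in LIF withdrawal without Dox or Dox without LIF, at most 4 per list and direction. Genes named as most alike were the 3 with the highest Pearson r, and neighbours were the nearest 2 on each side. Pdgfra and Flt1 in the long-term cells, and list genes named for a change under these limits, were chosen after their values were seen.

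In Nanog/Otx2 cells, libraries with the same clone and number deviated together (21 pairs, mean r 0.318, from 0.143 to 0.570). Those of the same clone but another number did so less (21 pairs, mean r 0.171, from −0.0872 to 0.374). Between clones the mean r was −0.245 (42 pairs), so part of the likeness belongs to the clone. The clone and number of the titles were used as the replicate block in an alternative fit, and the main fits had no block. In 1 Nanog/Otx2 library, and in some Nanog SunTag libraries, the column name gives another number. Other alternatives were DESeq2 1.42.0, its size factors, no filter on low counts, and leaving out each library. Windows and positions were read from mm9 with the GENCODE annotation given with it. The window before the start of Gm7325 is not reported here.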

Additional observations from a re-analysis of the deposited data

Results flagged for a closer look

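In 2 of the 18 groups of 4 libraries tested, 1 library stood apart from the other 3 by Dixon's criterion, and chance gives about 1 in 20. Adipoq in Nanog/Otx2 SunTag cells with LIF and Dox was 57.3 normalised counts in library C1-2, and between 16.3 and 19.8 in the others. Pde4b in these cells with Dox and no LIF was 98.8 in library C1-1, and between 48.0 and 50.2 in the others. In the same cells, 5 genes responded to Dox differently without LIF than with it, by a test of the difference in edgeR. The difference on the log2 scale was 3.61 for Gm7325, 2.01 for Serpinb1a, 3.12 for Adipoq, −3.18 for Pde4b and 1.69 for Pdgfc.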

How the results depend on the processing

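Over 35 tested changes of the 6 genes, 654 of 710 alternative values kept their direction and their side of the threshold, 46 lost it, 10 gained it and 0 reversed. The cause of these changes was not tested. Of 505 alternative values for described changes, 480 moved by less than their SE and 25 by more. With the replicate block, the count of genes called in Nanog/Otx2 cells rose from 2702 to 5215 for Dox without LIF, from 3577 to 6401 for Dox with LIF, and from 1514 to 3407 for the difference between them (4690, 5831 and 2887 with the clone alone as replicate block, an alternative chosen after seeing the data). The column name of the clone C2 library with LIF and no Dox gives number 2 where its title gives 1, and a replicate block by the column name, also added after seeing the data, gave 5398, 6519 and 3331 genes and the calls of the 6 that the titles gave. It changed the call of Adipoq for LIF withdrawal with Dox and of Gm10664 for Dox without LIF, and no other call of the 6 in these cells. Leaving out 1 library gave 1756 to 3007, 1962 to 4036 and 870 to 1847 genes for the same 3 comparisons, and 4 to 6, 2 to 4 and 2 to 5 of the 6 genes. For LIF withdrawal without Dox it gave 6682 to 7777 genes and 4 to 5 of the 6. For LIF withdrawal with Dox it gave 4898 to 6041 genes and 4 to 6 of the 6. With all libraries, 7768 genes (49.8%) and 5699 genes (36.5%) were called there. Leave-outs that left 1 library in a group were fitted with the spread of the other groups and were also added after seeing the data.

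For long-term 44iN against Tg2a cells, 1286 genes were called, 2294 with DESeq2, 4840 with a replicate block of the numbers, which these different lines share only as numbers (mean r 0.134 over 2 pairs), and 19 to 2618 when 1 library was left out, with 0 to 4 of the 6 genes. The 4 genes with both states were 3 to 4. Of the 18 pairs of a gene and its most alike genes, 7 stayed with Spearman's correlation and 11 with a pseudocount of 10. Genes near 0 counts are limited by depth, since 1 to 3 reads there set a value.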

Other observations

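Besides Adipoq, 5 genes had every library with Dox above every library without it, a pattern that was looked for after the Adipoq values were seen. Hoxa13, a homeobox gene, had between 47.5 and 1055 normalised counts with Dox and between 0 and 32.5 without. The other ranges nearly touched. Ano1 had 50.6 to 162 against 3.36 to 46.6, D430041D05Rik 53.3 to 241 against 3.41 to 50.9, Itga9 646 to 1229 against 56.5 to 640, and Cdc42ep3 366 to 626 against 112 to 364. No gene of the 16800 (count 0) had every Dox library below every other.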
